A study of Mus musculus with 27 samples.

Results

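Perinatal and fetal liver genes were followed in livers of male C57B/6J mice kept on 3 diets that differed in carbonyl iron. The group held 6 genes chosen by name, Afp, H19, Igf2, Gpc3, Cd24a and Tff3, and all 6 were found among the 22552 genes of the deposited RNA table. Mice on the standard-iron diet (SID) received 50 mg and mice on the high-iron diet (HID) 8.3 g carbonyl iron per kg, both from 6 weeks of age, while mice on the low-iron diet (LID) received 0.9 mg per kg from 3 weeks of age. Each diet had 3 RNA libraries of whole liver, per the labels. Low iron and the earlier diet start therefore cannot be told apart in any LID comparison. The sources used here give no age at collection, and no fetal or newborn liver was among the samples, so the change of these genes with age was not measured. The high-iron column of the table was identified by elimination, since its header does not spell out the diet.

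The group joins genes that the fetal or newborn rodent liver makes in quantity and the adult liver largely shuts off, with genes that mark progenitor or duct cells. Afp encodes alpha-fetoprotein, the fetal relative of albumin. H19 is an imprinted long noncoding RNA that shares its locus with Igf2, which encodes the fetal growth factor IGF-II. Gpc3 encodes glypican-3, a heparan sulphate proteoglycan of the cell surface that modulates growth factor signalling. Cd24a encodes a small glycosylated surface protein found on progenitor cells, epithelia and several blood cell types, and Tff3 encodes a secreted trefoil peptide of mucous epithelia. In adult mouse liver the repressors encoded by Zhx2 and Zbtb20 hold Afp down, and Zhx2 also acts on H19 and Gpc3. Reactivation of AFP and GPC3 is a known feature of human liver cancer and, for AFP, of regenerating liver.

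The sequence upstream of the RefSeq start was available here for 3 of the 6 genes (Afp, Gpc3 and Igf2, the last with 4 starts), and the 250 bases before the start are shown for Afp, which was not called in any comparison, and Gpc3, which was called in HID. Capitals mark GTTAAT (part of the site of the liver factor HNF1), TATAAA and GGGCGG (a GC box), searched on both strands. Across 32851 promoter windows of the same length, GTTAAT was present in 6.43%, TATAAA in 12.4% and GGGCGG in 32.7%. Both windows are credited to RefSeq on GRCm38.p6, a later build than the mm9 of the authors' processing.
Afp, chr5:90490464-90490713, plus strand: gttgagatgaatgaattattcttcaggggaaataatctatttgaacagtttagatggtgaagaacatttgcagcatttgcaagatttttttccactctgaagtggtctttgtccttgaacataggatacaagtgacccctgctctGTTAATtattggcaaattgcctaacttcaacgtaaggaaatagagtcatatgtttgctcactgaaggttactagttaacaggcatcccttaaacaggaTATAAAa
Gpc3, chrX:52613975-52614224, minus strand: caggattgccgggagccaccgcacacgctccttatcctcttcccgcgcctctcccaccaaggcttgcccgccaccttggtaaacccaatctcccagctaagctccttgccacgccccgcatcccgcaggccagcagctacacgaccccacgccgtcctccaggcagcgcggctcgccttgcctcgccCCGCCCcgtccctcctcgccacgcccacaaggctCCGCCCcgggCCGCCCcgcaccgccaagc
The Afp window held GTTAAT and TATAAA once each and no GC box, at a GC content of 36.0%. The TATAAA began 7 bases before the RefSeq start, and its use as a TATA box was not tested. The Gpc3 window held the GC box at 3 places, read as CCGCCC on the strand shown, and neither of the others, at a GC content of 71.6%. H19 had no promoter in the RefSeq table and is represented by the mature microRNAs cut from it, shown with the seed (bases 2 to 8) in capitals and read from the minus strand of chromosome 7.
mmu-miR-675-5p: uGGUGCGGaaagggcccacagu
mmu-miR-675-3p: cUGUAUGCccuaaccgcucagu
The arms have different seeds. Their host hairpin, Mir675, has a row of its own in the table and was listed at 0 FPKM in all 3 diets with the status LOWDATA, so no microRNA level can be read from these data.

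Levels are FPKM (fragments per kilobase of transcript, scaled to the library's total), a per-length unit, given by the authors as 1 combined value per gene and diet. There are no values per library, so no SD can be given, read depth is unknown, and the replicate error enters only through the p-values of the authors' deposited table. A gene was called where the deposited adjusted p was below 0.05. In HID against SID the calls made up 2.88% (higher) and 3.58% (lower) of 11374 tested genes. The shares were 1.61% and 2.79% of 11573 in LID against SID, and 1.96% and 1.83% of 11534 in HID against LID. The comparisons share samples pairwise and are not independent. Changes were taken as differences of log2(FPKM + 1), in which low genes show less than their full change, and their median over tested genes was −0.05, −0.09 and 0.04 in these comparisons. The libraries carried abundant liver transcripts. Ttr (transthyretin) stood at 4744 to 5633 FPKM and Apoa1 (apolipoprotein A-I) at 8346 to 12243 FPKM. Alb was listed at 0 in all diets with the status HIDATA, which Cufflinks writes where a locus holds too many fragments to be estimated.

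The 6 genes did not move together. Gpc3 and H19 rose in HID, Cd24a rose in LID, Tff3 fell in both diets, and Afp and Igf2 were not called in any comparison. In HID against SID 2 of the 6 were called higher and 1 lower, with 1 higher and 1 lower in LID against SID, and 2 higher and 2 lower in HID against LID. The authors tested 5 of the 6 in both comparisons with HID and 4 in LID against SID. Afp, H19 and Igf2 had means below 1 FPKM over the diets, and the other 3 lay above it.

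**Figure D1:**
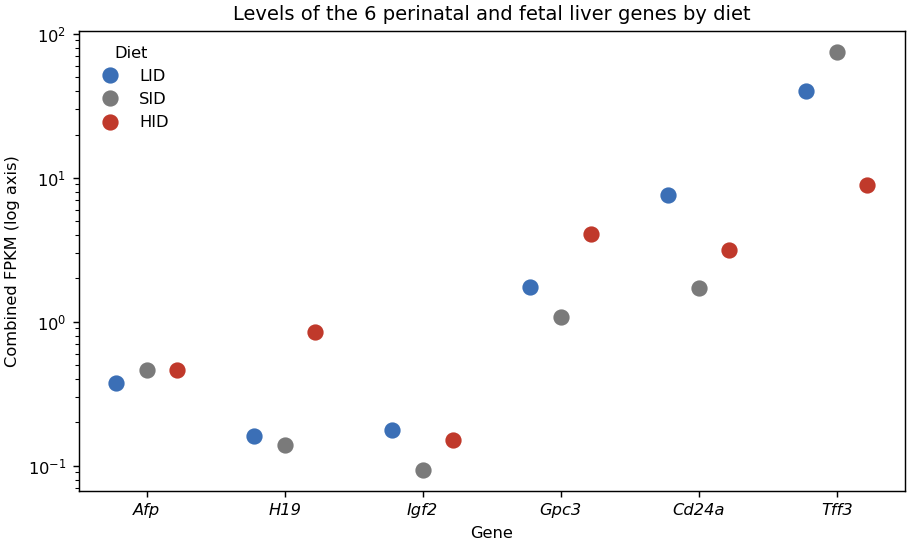
Combined FPKM of each gene (log axis) in the low-iron (LID), standard-iron (SID) and high-iron (HID) diet, 1 point per diet with no replicate spread. Tff3 was the most abundant gene of the group in every diet, from 8.97 FPKM in HID to 74.7 FPKM in SID, and Gpc3 and H19 had their highest value in HID.

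**Figure D2:**
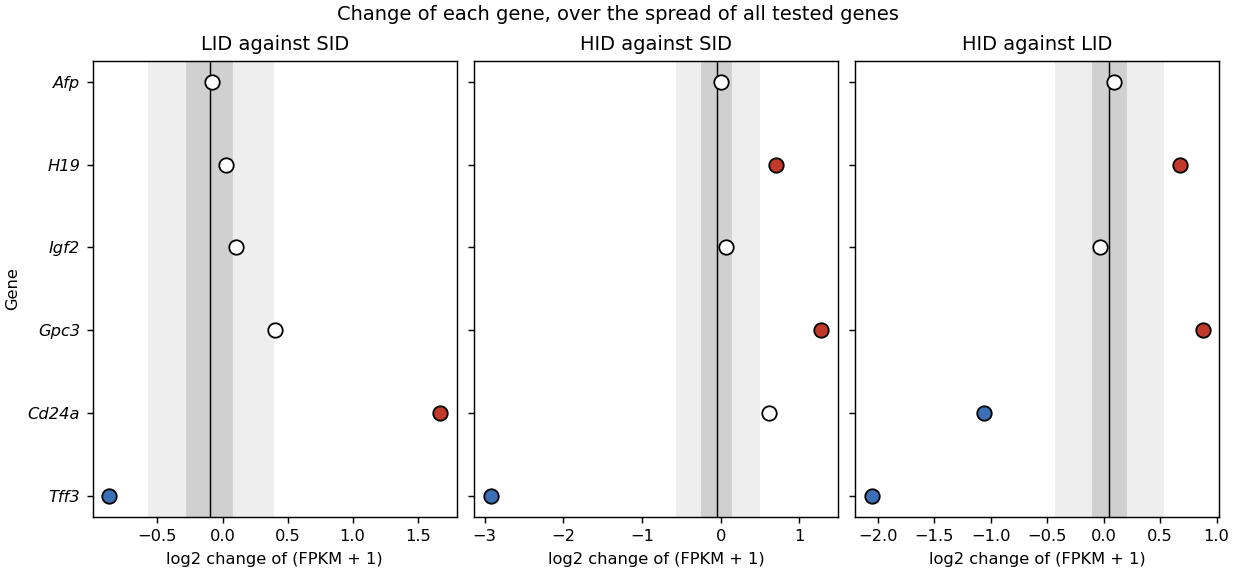
Change of log2(FPKM + 1) of each gene in each comparison, with filled points called higher (red) or lower (blue) and open points not called. The pale band spans the 5th to 95th percentile of all tested genes, the darker band the 25th to 75th, and the line their median. Afp and Igf2 lie near the median in all panels, where the pseudocount of 1 FPKM keeps changes of low genes small. Igf2 was tested in no comparison. With 0.01 FPKM its log2 change was 0.85 in LID and 0.64 in HID against SID.

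Afp stood at 0.377 FPKM in LID, 0.460 FPKM in SID and 0.463 FPKM in HID. The 3 values lay close together, and in SID Afp exceeded 52.4% of the genes listed. Its log2 change was 0.00 in HID against SID (adjusted p = 0.998 in the authors' deposited table) and −0.08 in LID against SID (adjusted p = 0.930 in the authors' deposited table). The change in LID turns to 0.0096 relative to the median of tested genes, so it has no stable direction. Its relatives on the same gene cluster were abundant and not called. Afm, which encodes the vitamin E carrier afamin, stood at 75.7 FPKM in LID, 78.5 in SID and 66.4 in HID. Gc, which encodes the vitamin D binding protein, stood at 2777 FPKM in LID, 3573 in SID and 3192 in HID.

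Among 17 regulators of Afp and H19, 3 forkhead genes fell in LID and 2 in HID, and no member rose. Over the 16 tested members the median log2 change was −0.32 in both diets, against −0.09 and −0.05 over all tested genes. None of these calls reached a 2-fold change, and at an adjusted p below 0.01 the calls numbered 1 in LID, Foxa3, and 0 in HID. Foxa3 fell from 26.7 FPKM in SID to 13.5 in LID and 15.95 in HID, and Foxa1 from 7.48 FPKM to 4.48 in LID and 4.61 in HID. These encode pioneer factors that open liver enhancers, and FOXA proteins bind the Afp control regions. Foxa2 fell from 16.8 to 10.3 FPKM in LID and stood at 12.4 FPKM in HID, where it was not called. The repressor gene Zhx2 had 2.94 FPKM in SID, 1.78 in HID (adjusted p = 0.0544 in the authors' deposited table) and 1.91 in LID (adjusted p = 0.169). It passed the threshold in HID when p-values were adjusted within that contrast. Zbtb20 had 2.26 FPKM in SID, 1.53 in HID and 1.39 in LID (adjusted p = 0.478 and 0.369 in the authors' deposited table). The log2 change in LID against SID was −0.44 for Zhx2, −0.45 for Zbtb20, −0.58 for Cebpa and −0.51 for Hnf4a. In HID against SID it was −0.50, −0.37, −0.31 and −0.37 in the same order. Cebpa and Hnf4a were also not called, and such falls were not confined to the repressor genes. Of the tested members, Zhx1, Trp53 and Nr5a2 went the other way in LID (0.10, 0.12 and 0.05). In HID, Trp53 and Nr2f2 did (0.11 and 0.09). In HID against LID, 0 of the 16 tested regulators were called.

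H19 stood at 0.162 FPKM in LID, 0.139 FPKM in SID and 0.850 FPKM in HID. HID stood apart, while LID and SID lay close together. H19 rose 6.13-fold in HID against SID (log2 change 0.70, adjusted p = 0.000443 in the authors' deposited table) and was 5.26-fold higher in HID than in LID (log2 change 0.67, adjusted p = 0.0178 in the authors' deposited table). In rank it moved from above 45.0% of listed genes in SID to above 56.3% in HID. In LID against SID the ratio was 1.16 with an unadjusted p of 0.790, and the authors did not test it. All of these levels lie under 1 FPKM, and how many reads stand behind them is unknown.

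Igf2 stood at 0.177 FPKM in LID, 0.0936 FPKM in SID and 0.152 FPKM in HID. The ratio to SID was 1.89 in LID and 1.62 in HID, and the unadjusted p in the authors' deposited table was 0.228 and 0.320. The authors tested Igf2 in none of the comparisons, so its row carries no call. The antisense transcript Igf2as was listed at 0 in SID and HID and at 0.00472 FPKM in LID. The sources used here do not say whether counting used strand, so reads of the sense and antisense genes cannot be told apart. Since H19 and Igf2 are expressed from opposite parental copies in mice, gene-level FPKM also do not say which copy was read.

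The rest of the imprinted growth network showed 1 call. Of 31 imprinted genes 17 were tested in HID against SID, and Impact, an inhibitor of the translation kinase GCN2, was the 1 that rose, from 2.03 to 3.52 FPKM. The median log2 change of the tested members was 0.13 there and 0.04 in LID against SID, where 0 of 19 were called. Plagl1, a zinc-finger regulator of the network that acts on H19 and Igf2, stood at 0.642 FPKM in HID, 0.569 in LID and 0.298 in SID (adjusted p = 0.0529 in HID and 0.236 in LID in the authors' deposited table). Dlk1, another fetal imprinted gene, stood between 0.00557 and 0.0169 FPKM and was not tested. Meg3 stood at 0.419 FPKM in LID, 0.167 in SID and 0.238 in HID. The growth inhibitor gene Cdkn1c stood at 0.673 FPKM in LID, 0.892 in SID and 1.07 in HID, and neither was called. Peg3 stood at 0.391 FPKM in LID, 0.272 in SID and 0.374 in HID, and Mest at 2.07, 1.44 and 2.09 FPKM, also not called.

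IGF-II acts through receptors and binding proteins, and several of the binding protein genes changed. Igfbp5 rose from 2.56 FPKM in SID to 6.53 in LID and 9.80 in HID. Igfbp6, whose product prefers IGF-II over IGF-I, rose from 1.72 to 4.91 FPKM in HID and stood at 3.60 FPKM in LID (adjusted p = 0.0754 in LID in the authors' deposited table). Igfbp1 rose in LID, from 105 to 226 FPKM, and stood at 82.0 FPKM in HID. Igfals, which encodes the subunit that keeps IGF complexes in the circulation, fell from 30.04 FPKM to 15.8 in LID and 14.6 in HID. Over the 15 tested members of the IGF list, 2 rose and 1 fell in each diet against SID, and the median log2 change was −0.10 in LID and −0.15 in HID. The adult growth factor gene Igf1 (103 FPKM in LID, 104 in SID and 79.2 in HID) and the IGF-II clearance receptor gene Igf2r (2.04, 2.27 and 2.24 FPKM in the same order) were not called. Igfbp2 stood at 214 FPKM in LID, 265 in SID and 190.4 in HID and was not called, and the receptor gene Igf1r, at 0.111 to 0.187 FPKM, was not tested. In HID against LID, Igfbp1 and the insulin receptor substrate gene Irs2 (1.10 against 2.15 FPKM) were the 2 of 15 called, both lower.

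Gpc3 stood at 1.75 FPKM in LID, 1.08 FPKM in SID and 4.05 FPKM in HID. HID was the highest and SID the lowest. Gpc3 rose 3.76-fold in HID against SID (log2 change 1.28, adjusted p = 9.48e-08 in the authors' deposited table) and was 2.31-fold higher in HID than in LID (log2 change 0.88, adjusted p = 0.00970 in the authors' deposited table). In LID against SID the ratio was 1.63 (log2 change 0.41, adjusted p = 0.364 in the authors' deposited table), which was not called. On the log2(FPKM + 1) scale Gpc3 ranked 74 and H19 232 among the 328 genes called higher in HID against SID. That order between them rests on the pseudocount, since with 0.1 FPKM the log2 change was 1.99 for H19 and 1.82 for Gpc3.

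Among the other glypicans 1 was called, and it moved opposite to Gpc3. Gpc1, a glypican of many tissues, fell from 1.65 FPKM in SID to 0.375 in HID and stood at 1.18 FPKM in LID. Gpc6 stood at 0.633 FPKM in HID, 0.521 in LID and 0.311 in SID (adjusted p = 0.0509 in HID and 0.344 in LID in the authors' deposited table), and Gpc4 at 8.35, 9.45 and 11.6 FPKM, so Gpc4 was the most abundant glypican of the list in every diet. Gpc5 was listed at 0 in all diets. Of 19 tested glypican and heparan sulphate genes, 1 rose and 3 fell in HID against SID, with a median log2 change of −0.18. The count of those higher became 3 when p-values were adjusted within the contrast and 0 at an adjusted p below 0.01. Sulf1, whose product trims sulphate groups from heparan sulphate chains, rose from 0.467 to 1.365 FPKM. Extl1, a gene of the exostosin family of heparan sulphate enzymes, fell from 1.47 to 0.378 FPKM, and Sdc1, another heparan sulphate proteoglycan gene, from 56.2 to 34.9 FPKM. In LID against SID 0 of 19 were called, and the median log2 change was −0.21. In HID against LID, Sulf2, the partner of Sulf1, was higher (2.19 against 0.658 FPKM), and Gpc1 and Extl1 were lower.

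**Figure D3:**
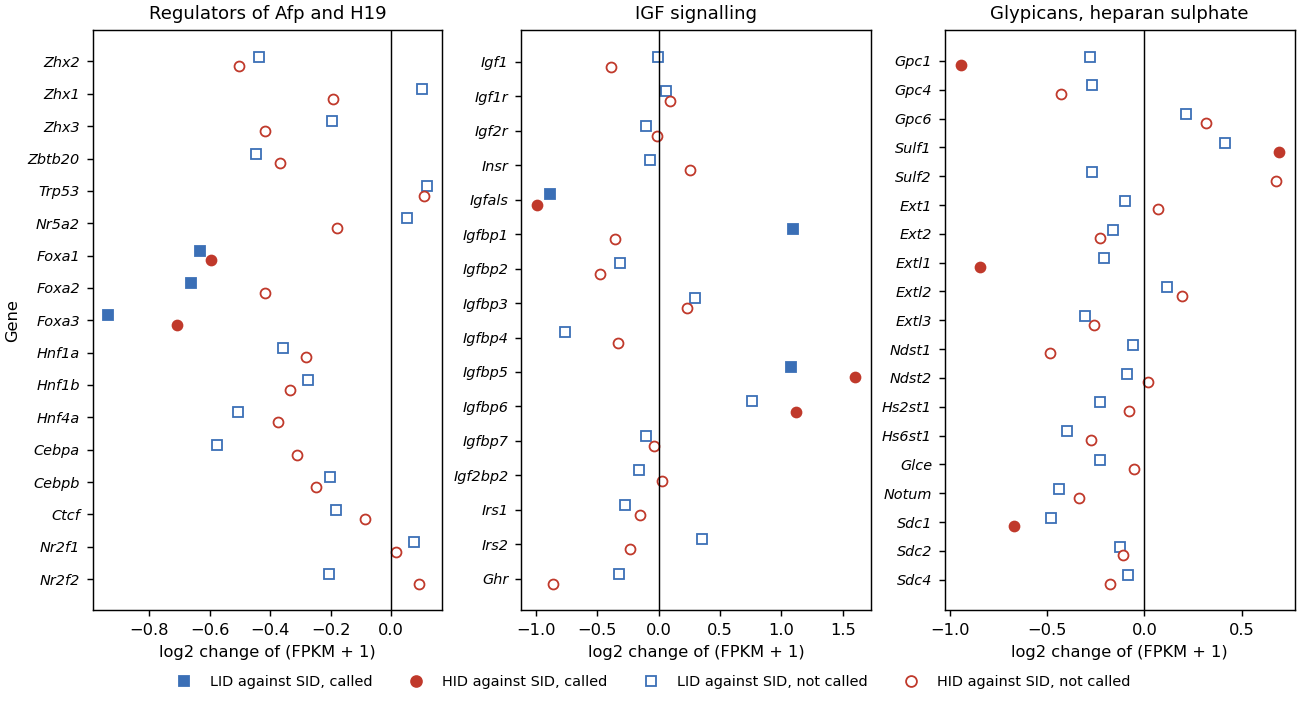
Change of log2(FPKM + 1) against SID for regulators of Afp and H19, IGF signalling genes and glypican and heparan sulphate genes with a mean of at least 0.1 FPKM. Squares are LID and circles HID, and filled symbols were called by the authors' adjusted p. The forkhead genes lie at the left in both diets, with Foxa2 not called in HID, and Gpc1 lies at the left in HID.

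Of the duct and progenitor cell markers, 2 were called higher in HID, as Gpc3 and H19 were. These were 2 of 12 tested in HID against SID, and 0 fell, with a median log2 change of 0.02. Over all tested genes 2.88% were called higher and 3.58% lower, with a median of −0.05. At an unadjusted p below 0.05, 3 of the markers were higher and 1 lower. Krt7, a keratin of bile duct cells, rose from 0.596 to 1.75 FPKM, and Spp1, which encodes osteopontin of duct cells and macrophages, rose from 25.1 to 49.0 FPKM. Krt19 stood at 1.73 FPKM in HID against 1.06 in SID, Epcam at 0.785 against 0.799 and Sox9 at 0.977 against 0.964, and none was called. The 20 markers summed to 174 FPKM in LID, 184 in SID and 215 in HID, and in LID against SID 0 of 12 were called. In HID against LID, where Gpc3 and H19 were also higher, 1 of 11 was called higher, Spp1, and Krt7 was not called. Over all tested genes 1.96% were called higher there. The part of these cells in the rise of Gpc3 and H19 was not tested, and in whole liver more cells of a type and more RNA per cell cannot be told apart.

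Cd24a stood at 7.63 FPKM in LID, 1.71 FPKM in SID and 3.14 FPKM in HID. LID was the highest and SID the lowest. Cd24a rose 4.47-fold in LID against SID (log2 change 1.67, adjusted p = 6.41e-09 in the authors' deposited table), which ranked 29 among 186 genes called higher, and it was 2.43-fold lower in HID than in LID (adjusted p = 0.00277 in the authors' deposited table). In HID against SID the ratio was 1.84 (log2 change 0.61, adjusted p = 0.0687 in the authors' deposited table), so it was not called. The mouse genome holds processed copies of Cd24a, and the sources used here do not say how reads shared with them were assigned, so its level is uncertain to that extent.

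Neutrophil markers and some red cell markers were higher in LID, as Cd24a was, and B cell markers were not called. Of 10 tested neutrophil markers 7 rose and 0 fell in LID against SID, and the 14 listed markers summed to 198 FPKM in LID, 7.30 in SID and 22.0 in HID. S100a8, a calprotectin subunit gene, stood at 96.7 FPKM in LID against 2.38 in SID. In HID against SID the authors tested 3 of the 14, and 2 were higher, S100a8 at 9.15 FPKM and its partner S100a9 at 10.9 against 3.80 FPKM in SID. The tested set leans on the LID values, so the counts are a description. Among red cell markers 4 of 9 tested rose and 1 fell, and the 15 markers in the table summed to 1128 FPKM in LID, 803 in SID and 823 in HID. The red cell membrane gene Slc4a1 (1.53 against 0.0564 FPKM) was among the 4. Alas2, of the same list, went the other way, at 27.4 FPKM in LID against 44.0 in SID. It was called lower in HID against SID, at 8.71 FPKM. The embryonic globin genes Hbb-y, Hbb-bh1 and Hba-x were listed at 0 in all diets. B cell markers had 0 of 2 tested members called and summed to 2.54 FPKM in LID, 2.23 in SID and 2.98 in HID. The part of neutrophils and red cell precursors in the Cd24a values was not tested. The cell division gene Mki67 rose as well, from 0.0875 to 0.476 FPKM, as 1 of 14 tested cell division genes, whose 25 members summed to 40.2 FPKM in LID, 35.6 in SID and 37.5 in HID.

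**Figure D4:**
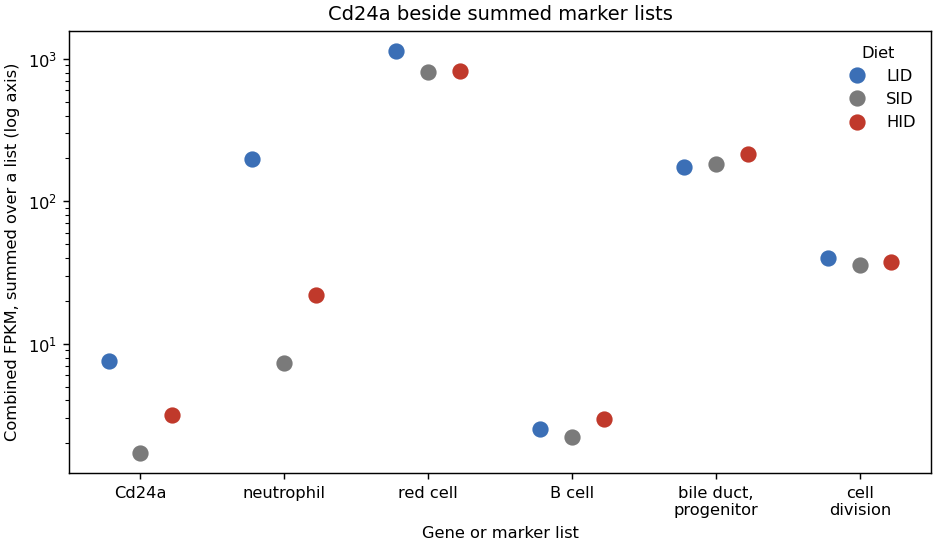
Combined FPKM of Cd24a and of marker lists summed over their genes (log axis) in each diet, 1 point per diet with no replicate spread. Cd24a and the neutrophil, red cell and cell division sums all order LID above HID above SID. The red cell, B cell, duct and progenitor and cell division sums differ little between diets on this axis.

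Tff3 stood at 40.4 FPKM in LID, 74.7 FPKM in SID and 8.97 FPKM in HID. SID was the highest and HID the lowest, and in SID Tff3 exceeded 96.1% of the genes listed, so it was not a silent gene in these livers. Tff3 fell in HID against SID, where it was 8.33-fold lower (log2 change −2.92, adjusted p listed at 0 in the authors' deposited table), which ranked 14 among 407 genes called lower. In LID against SID it was 1.85-fold lower (log2 change −0.87, adjusted p = 0.00526 in the authors' deposited table). It was 4.51-fold lower in HID than in LID (log2 change −2.05, adjusted p = 8.72e-09 in the authors' deposited table).

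Genes that accompany Tff3 in mucous tissue were close to 0. Tff1 stood at 0.123 FPKM in LID, 0.218 in SID and 0.190 in HID, and Tff2 at 0.132, 0.138 and 0.300 FPKM. The 8 trefoil and mucus genes summed to 0.469 to 0.722 FPKM, none was tested by the authors, and Agr2 was listed at 0 in all diets. Of the 14 gut epithelium markers, Fabp2 carried nearly all of the sum at 228 to 240 FPKM, and the gut transcription factor gene Cdx1 and the gut peptide gene Guca2a were listed at 0 in all diets. Reg3b stood at 0.925 FPKM in SID and was listed at 0 in LID and HID, where it was called lower. Pancreas acinar markers summed to 41.5 FPKM in LID, 30.0 in SID and 18.9 in HID. In LID against SID 0 of 15 tested were called, and 1 of 14, Amy2a5, was lower in HID against SID. In LID against SID, where Tff3 was lower, the median log2 change was 0.38. At an unadjusted p below 0.05, 2 were higher and 0 lower there. In HID against SID the median was −0.35, with 0 higher and 1 lower at that threshold. In HID against LID, where Tff3 was also lower, 1 of 15 was called lower, Cpa1 (0.307 against 1.36 FPKM), with a median log2 change of −0.80, and 9 were lower at an unadjusted p below 0.05. The part of other tissues in the Tff3 values was not tested.

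Other oncofetal and hepatoblast genes gave calls in LID. Of 8 tested members 2 rose and 0 fell in LID against SID, and 0 were called in HID against SID. Pkm2, a pyruvate kinase gene active in fetal liver and dividing cells, rose from 5.89 to 17.0 FPKM and stood at 8.16 FPKM in HID. Its gene-level FPKM do not say which transcript form was read. Lpl, lipoprotein lipase, which mouse liver makes around birth, rose from 2.76 to 6.77 FPKM in LID and stood at 3.95 FPKM in HID. Both were called lower in HID against LID, and Lpl lost that call when adjusted within the contrast, at an adjusted p below 0.01 and at a 2-fold limit, which left 1. The median log2 change of the tested members was 0.08 in LID and 0.06 in HID. The part of other cell types, such as neutrophils, in the 2 rises in LID was not tested. The RNA-binding protein genes Lin28a and Lin28b, which mark the fetal state, had no level above 0.0102 FPKM.

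Adult hepatocyte genes gave calls in every comparison. Of 23 tested members 2 fell and 0 rose in LID against SID, and their median log2 change was −0.33. Over all tested genes 2.79% were called lower there, and the median was −0.09. In HID against SID 1 rose and 1 fell, and the median was −0.19, against −0.05 over all tested genes. In HID against LID 2 of 23 were called higher, Sds and Hal, and 0 lower. Over all tested genes 1.96% were called higher in that comparison. Sds, serine dehydratase of gluconeogenesis, stood at 45.4 FPKM in LID, 83.8 in SID and 154 in HID. Against SID it was called lower in LID and higher in HID. Hal, histidine ammonia-lyase, fell from 57.5 to 35.0 FPKM in LID, and G6pc, glucose-6-phosphatase, fell from 205 to 108 FPKM in HID. The calls of Sds and Hal against SID were lost at an adjusted p below 0.01 and at a 2-fold limit. That of G6pc was lost at the 2-fold limit only. The 2 calls in HID against LID stayed at both.

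The genes with the nearest profiles over the 3 diets were sought among 9548 genes with a mean of at least 1 FPKM, by Euclidean distance between centred log2(FPKM + 1) values. For Gpc3 they were Rtn4 (27.3 FPKM in LID, 20.4 in SID and 49.1 in HID), Ifih1 and Apoa4, at distances of 0.04 to 0.08. For H19 they were 2610029I01Rik (14.4 FPKM in LID, 14.3 in SID and 23.6 in HID), Arrdc3 and Slc7a2, at 0.01 to 0.06. For Cd24a they were Fabp5 (388 FPKM in LID, 122 in SID and 178 in HID), Cyp17a1 and Btg2, at 0.05 to 0.13. For Tff3 the nearest were Alas2, Hspb1 and C6, at 0.52 to 0.55, farther than those of the other members. Distances depend on the pseudocount and on the size of the change, and low genes such as H19 show less than their full change. The distances of different members therefore cannot be compared closely. Alas2, the erythroid haem synthesis gene, stood at 27.4 FPKM in LID, 44.0 in SID and 8.71 in HID. Afp lay nearest to Zbtb33, Mcrs1 and Sos2, and Igf2 to Tmem29, Nav2 and Cdkl2, all flat profiles on this scale. With 3 points per gene this likeness is a description only.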

How the data were processed

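RNA of 9 livers (3 per diet) was used, and the methylation libraries were not analysed here. The submitters' processing notes name TopHat, Cufflinks 2.2.1 and mm9. The RNA table deposited by the authors gave 1 FPKM per gene and diet, combined over libraries. FPKM is inferred from Cufflinks and its status words, as the column names carry no unit. For each contrast the authors gave a p-value and its adjusted form, per the file headers. No source used here names their test. The adjusted values equalled a Benjamini-Hochberg adjustment across all genes and contrasts (34481 tests, largest gap 2.69e-06), and genes with an adjusted p of 1 were taken as not tested. Changes are log2((FPKM + 1)/(FPKM + 1)).

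Python 3.11.15, pandas 2.3.3 and numpy 2.4.6 were used, and the adjustment was tested on simulated data. The table has 1 value per diet and allows no fit of limma, so the authors' calls were used. The filter at a mean of 1 FPKM is an alternative here, because 3 of the 6 genes lie under it.

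Members and the 15 gene lists (247 of 248 genes in the table) were chosen with earlier results of these data known. The series design gives 3 male mice per group. Named were all members, fixed partner genes, up to 4 called genes per list and contrast with the smallest p, and 3 nearest profiles per member. Further genes (Ttr, Apoa1, Mir675, Igf2as, Guca2a, Cdx1, Agr2, Fabp2, Gpc5, the embryonic globins, Lin28a and Lin28b) were named after their values were seen. The same holds for the regulators Cebpa, Hnf4a, Zhx1, Trp53, Nr5a2 and Nr2f2. Not every gene under the rule is described, and some items are not reported here.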

Additional observations from a re-analysis of the deposited data

How the results depend on the processing

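No paired analysis was possible because the RNA table holds 1 combined value per diet, and for the same reason no fit without a library was run. Scaling to the upper quartile or to summed FPKM moved the median change of tested genes by up to 0.16, below the smallest change of a gene named as called from the lists (0.32). Over other pseudocounts and scalings, 89 of 90 changes of the 6 genes kept their sign. The exception was Afp in LID against SID, at 0.0096 relative to the median of tested genes. Sizes of low genes depended on the pseudocount. With 0.1 and 0.01 FPKM in place of 1, H19 in HID against SID went from 0.70 to 1.99 and 2.53, and Igf2 in LID against SID from 0.11 to 0.52 and 0.85.

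Of 81 recomputed calls of the 6 genes, 78 were the same. At a 2-fold limit Tff3 was lost in LID against SID, leaving 0 of the 6 called lower. At an adjusted p below 0.01 H19 was lost in HID against LID, leaving 1 higher. At an unadjusted p below 0.05 Cd24a passed in HID against SID. With the filter at 1 FPKM, which removes H19, 1 of the 6 was higher in HID against SID and 1 in HID against LID.

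Calls of single genes outside the group were recomputed only for Zhx2, Zbtb20, Foxa1, Foxa2, Foxa3, Gpc1, Igfbp5, Krt7 and Spp1. Of these 135 recomputed calls 11 were lost and 6 gained. Over all lists, 70 of 450 list counts moved by over 1.5 times. In HID against SID an adjusted p below 0.01 removed, among others, Impact, Krt7, Foxa1, Foxa3, Sds, Amy2a5 and Reg3b. A 2-fold limit there removed, among others, Impact, Spp1, Foxa1, Foxa3, Sds and G6pc. An adjusted p below 0.01 also removed Reg3b in LID against SID and Cpa1 in HID against LID.

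Over the whole table, an unadjusted p below 0.05 gave 523 genes higher and 1266 lower in LID against SID, 815 and 1203 in HID against SID, and 654 and 515 in HID against LID. An adjusted p below 0.01 gave 112 higher and 159 lower in LID against SID and 237 lower in HID against SID. With a 2-fold limit 96 were lower in LID against SID and 212 in HID against SID. These are stricter or looser by construction. Depth is unknown, which limits every statement on genes under 1 FPKM.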
